A study of Mus musculus with 12 samples.

Results

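The last divisions sampled in a study of dividing CD4 T cells, D8 and D6, were compared on 6 of the study's 12 arrays. D8 cells are labelled as having divided 7 times and D6 cells as having divided 5 times. The comparison takes 3 D8 arrays and 3 D6 arrays, paired by experiment, with every probe whose detection p was under 0.05 on 3 or more of these 6. That left 16226 of 45281 probes. Of these, 13739 carried a single gene symbol, and they stood for 8846 genes, each read by its brightest detected probe.

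All groups came from the same design. The cells were naive CD4 cells from DO11.10 donors, which carry a transgenic T cell receptor for a peptide of ovalbumin (OVA). They were stained with CFSE and moved into Balb/c hosts that were then given OVA peptide in complete Freund's adjuvant (CFA). Lymph node cells were taken 66 to 72 h later, and divisions D3, D4, D6 and D8 were sorted in 3 independent experiments, 1 array per division and experiment. The series' design text describes D4 as readily becoming memory cells and D3, D6 and D8 as having less of that potential. The animals' age is not given in the sources used here, no label names a gate on the transferred T cell receptor, and the hosts kept their own lymphocytes. Every group carried the transgene and the immunization, so no array is of resting or non-transgenic cells.

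CFSE is a dye that is shared out between daughter cells, so each division dilutes it and a sorter can separate cells by the number of divisions. After activation, CD4 T cells leave the quiescent state, pass through rapid cycles driven by cyclin-dependent kinases, and acquire the cytokines, chemokine receptors and adhesion molecules of effector cells. Cells at the last dye step that a sorter can still resolve are those that have divided most in the same lymph node over the same time.

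The sorted cells carried the RNA of T cells. Of 14 measured genes of T cell identity, 1 passed the test between D8 and D6 and the others did not. Cd3e, a chain of the receptor complex, had normalized log2 intensities of 13.13, 12.99 and 13.10 in D8, against 13.17, 13.32 and 13.29 in D6. Cd4 had 8.17, 8.15 and 8.34 in D8, against 7.99, 8.40 and 8.35 in D6. Bcl11b, a transcription factor of T cell identity, was the member that passed, with a difference of -0.41 ± 0.10 (adjusted p 0.0185). Its call was lost in 7 of 24 alternative settings of the processing, which are described at the end. Such losses are given for some genes only, and a call without this remark may also depend on the setting. Here and below a level is a background-corrected, quantile-normalized log2 intensity, on which a probe at background sits a little above 4. A difference is D8 minus D6 on that log2 scale, over n = 3 pairs. The ± after a difference is its standard error from limma, whose error term draws on all 12 arrays.

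The 12 arrays had median raw intensities of 41.6 to 51.2 and between 15563 and 16666 detected probes. On the first principal component of the 12 arrays, which held 57.8% of the variance, D8 arrays lay at 47.41, 43.14 and 31.82 and D6 arrays at 11.29, 7.34 and 7.08. The D8 array of experiment 3 was the one nearest to D6, and the count of genes and the counts of the gene lists are also given without it, for most lists together near the end. Nothing in the labels says that the experiments used separate donors. With the experiment in the model, p-values measure how much the differences between divisions varied over these 3 experiments, whose number limits the precision. These are whole-population measurements, and fewer cells of a type cannot be told apart from less RNA per cell.

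Between D8 and D6, 1520 of 8846 genes passed limma's test at an adjusted p under 0.05 (17.2%), 787 of them higher in D8 (8.9%) and 733 lower in D8 (8.29%). More than 2-fold differences were found for 71 of the higher and 61 of the lower genes. The median absolute difference over all genes was 0.161, and the median difference was 0.007. Among the higher genes 786 of 787 were higher in D8 in all 3 experiments, and among the lower genes 732 of 733 were lower in all 3. Values of the 3 D8 arrays lay wholly above those of the 3 D6 arrays for 1335 genes (15.1% of those tested) and wholly below for 1238 (14%). The count depended on single arrays: it was 829 without the D8 array of experiment 1, 942 without that of experiment 2 and 871 without the D6 array of experiment 1, against 1471 without the D8 array of experiment 3. It was 795 when the experiment was left out of the model. With the 6 D8 and D6 arrays fitted alone, without the D3 and D4 arrays in the error term, it was 1080.

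The largest increases fell on galectin, calcium-binding and membrane-associated genes, a cytokine and a chemokine receptor. Lgals3, which encodes the carbohydrate-binding protein galectin 3, had levels of 8.50, 7.62 and 7.90 in D8, against 5.18, 4.66 and 5.90 in D6, where it was detected on 2 of 3 arrays. Its difference was 2.76 ± 0.31, or 6.78-fold (adjusted p 0.000181). S100a6, a small calcium-binding protein, had 8.80, 8.52 and 7.71 in D8, against 6.15, 5.62 and 6.04 in D6 (2.41 ± 0.22). For both genes every D8 array was above every D6 array, by more than the spread inside either division.

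Socs2, an inhibitor of cytokine receptor signalling, followed with a difference of 2.09 ± 0.20 and was detected on 1 of 3 D6 arrays. Ifitm3, an interferon-inducible membrane protein that hinders virus entry, differed by 2.06 ± 0.22, and Cxcr4, the receptor of the chemokine CXCL12, by 2.01 ± 0.22. Myo1f, an unconventional myosin of leukocytes, differed by 1.98 ± 0.16, and Tigit, an inhibitory receptor, by 1.95 ± 0.23. Sema7a, a membrane-anchored semaphorin, differed by 1.92 ± 0.14 and Anxa2, a calcium-dependent membrane-binding annexin, by 1.87 ± 0.18. The second Anxa2 probe gave a smaller difference of 0.68. Il4 differed by 1.85 ± 0.15. Acta2, smooth muscle actin, differed by 1.81 ± 0.15 at its brightest probe and by 0.12 at the other. The uncharacterised gene 1500009L16Rik was not detected on any D6 array and was at least 4.49-fold higher in D8, the bound being set by the dimmest detected probes of the D6 arrays. This gene passed the detection filter through its D8 arrays alone.

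**Figure D1:**
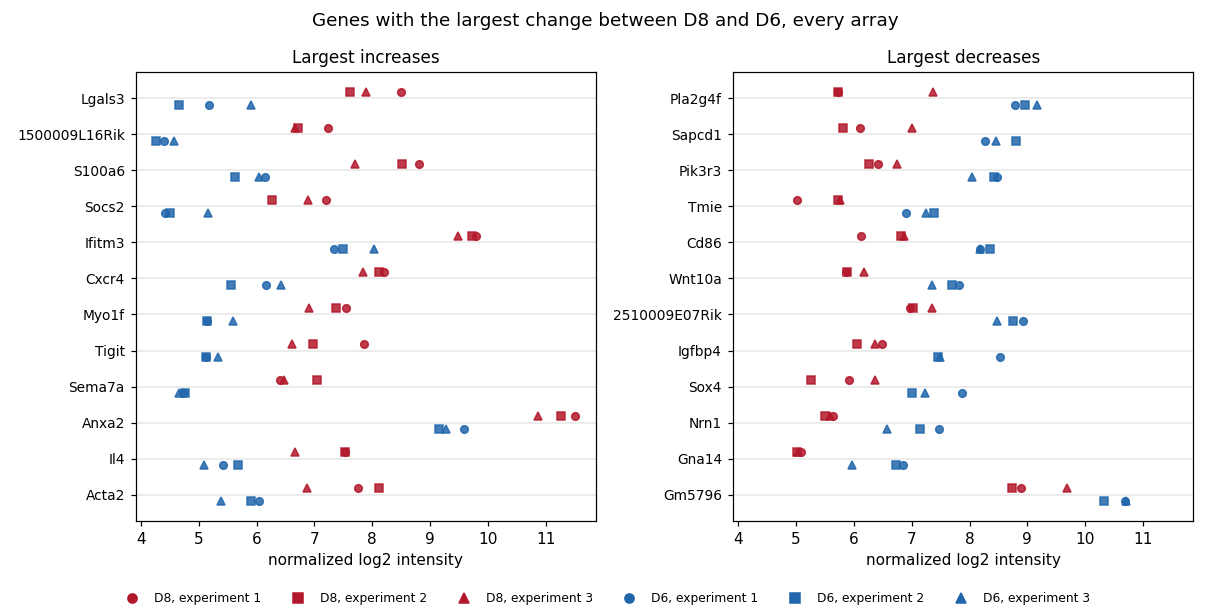
Normalized log2 intensity (x axis) of the 12 genes with the largest increase (left) and the 12 with the largest decrease (right) in D8 relative to D6, 1 gene per row. Red marks are the 3 D8 arrays and blue marks the 3 D6 arrays, with circles, squares and triangles for experiments 1, 2 and 3. In every row the 3 D8 values and the 3 D6 values do not overlap, and for Pla2g4f the D8 array of experiment 3 (7.37) stands nearer to the D6 arrays than the other D8 arrays do (5.72 and 5.72).

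Among the largest decreases were lipid-signalling, kinase-adaptor, costimulatory and transcription factor genes. Pla2g4f, a cytosolic phospholipase A2 that releases fatty acids from membranes, had levels of 5.72, 5.72 and 7.37 in D8, against 8.78, 8.96 and 9.17 in D6. It fell by 2.70 (SE 0.30), or 6.5-fold, the largest decrease measured. Sapcd1 differed by -2.20 ± 0.22, while Pik3r3, which codes for a PI3 kinase adaptor subunit, differed by -1.84 ± 0.16, with a second Pik3r3 probe at -1.42. The array of experiment 3 was the highest of the D8 arrays for Pla2g4f, Sapcd1 and Pik3r3.

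Cd86, which codes for a ligand of CD28 and CTLA4, had levels of 6.13, 6.81 and 6.87 in D8, against 8.19, 8.36 and 8.19 in D6 (-1.64 ± 0.18), and its other probes gave -1.55 and -0.97. Wnt10a, a secreted Wnt ligand, differed by -1.64 ± 0.20 and Tmie by -1.67 ± 0.13. Sox4, a transcription factor of early T cells, differed by -1.52 ± 0.21, Nrn1, which codes for the neuritin protein, by -1.49 ± 0.15 and Igfbp4, a binding protein of insulin-like growth factors, by -1.53 ± 0.14. 2510009E07Rik (-1.60 ± 0.16), Gna14 (-1.47 ± 0.15), which codes for a G protein subunit, and Gm5796 (-1.46 ± 0.15) complete the 12. The adjusted p of these 12 decreases was at most 0.000535.

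Each list count here and below is to be read against the 8.9% of all genes that were higher and the 8.29% that were lower. Genes of the cell cycle were the most often higher of all groups examined. Of 40 tested genes of mitosis 33 rose and none fell, against 8.9% and 8.29% of all genes, and all 40 differences were positive with a median of 0.75. Without the D8 array of experiment 3 the count was 36, and without the experiment in the model it was 32. Cdc25b, a phosphatase that activates CDK1 at mitotic entry, had levels of 8.04, 7.41 and 7.64 in D8, against 6.35, 6.36 and 6.70 in D6 (1.23 ± 0.15, adjusted p 0.000273). Espl1, which codes for separase, the protease that frees sister chromatids, had 7.75, 7.16 and 7.24 in D8, against 6.32, 6.31 and 6.44 in D6 (1.03 ± 0.14). For both genes the lowest D8 array stood above the highest D6 array.

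Anln, an actin-binding protein of the cleavage furrow, rose by 0.98 ± 0.10. Top2a, the topoisomerase that decatenates chromosomes, rose by 0.97 ± 0.11, with its other probes at 0.49 and 0.88. Birc5, known as survivin and part of the chromosomal passenger complex, rose by 0.97 ± 0.12, with its other probes at 1.10 and 1.27. The 7 tested mitosis genes that did not pass had differences of 0.12 to 0.50 and included the condensin subunits Smc2 (0.50) and Smc4 (0.15), Cenpf (0.34) and Melk (0.12).

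Genes of DNA replication rose nearly as often, 29 of 41 with none falling, and again all 41 differences were positive, with a median of 0.53. Without the experiment in the model 19 passed. Rrm2, the small subunit of ribonucleotide reductase, had levels of 9.01, 8.67 and 8.16 in D8, against 7.77, 7.42 and 7.45 in D6 (1.06 ± 0.15). Tk1, thymidine kinase, rose by 0.87 ± 0.11. Gins1 (0.86 ± 0.10) and Cdc45 (0.84 ± 0.10) code for parts of the replicative helicase, and Chaf1a (0.84 ± 0.11) for a histone chaperone that works behind the fork. Among the members that did not pass were Rpa1 (0.24) and Rpa2 (0.12), of the single-strand binding complex, and the polymerase subunit gene Pold3 (0.06).

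Repair genes of homologous recombination and the Fanconi pathway rose in 11 of 21 tested members with none falling, at a median of 0.44. Clspn, a mediator of the replication checkpoint, rose by 0.96 ± 0.13, although 1 of its 3 other probes gave 0.07. Fancd2 rose by 0.87 ± 0.14, Rad54l by 0.84 ± 0.13, the helicase gene Blm by 0.80 ± 0.14 and Bard1, the partner of BRCA1, by 0.77 ± 0.14. Without the experiment in the model 8 of the 21 rose.

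Cyclins and E2F factors of the G1 phase split by member. Of 19 tested, 10 rose and 2 fell, and without the experiment in the model 5 rose and 1 fell. Ccne1, which codes for cyclin E1 of the G1 to S transition, rose by 1.02 ± 0.15 and Ccne2 by 0.61 ± 0.13, and Mybl2, a transcription factor of the cell cycle, by 0.93 ± 0.16. Ccnd2, which codes for cyclin D2, an early cyclin of stimulated T cells, went the other way with levels of 10.22, 10.58 and 11 in D8, against 11.94, 11.73 and 11.56 in D6 (-1.14 ± 0.24, adjusted p 0.00714). Its other probes gave -1.10 and -0.88.

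Inhibitors and brakes of the cycle moved in both directions, with 6 of 17 tested members higher and 5 lower (4 and 2 without the experiment in the model). Higher were Mxd3, a partner of MAX that is expressed in S phase (1.04 ± 0.16), Cdkn2c, which codes for the CDK4 and CDK6 inhibitor p18 (1.03 ± 0.13), Cdkn3, a phosphatase of CDKs (0.86 ± 0.12), and Cdkn1c, which codes for the CDK inhibitor p57 (0.69 ± 0.15). Mxd4, a further partner of MAX that opposes MYC, was lower, with 11.32, 11.40 and 11.85 in D8, against 12.58, 12.49 and 12.45 in D6 (-0.98 ± 0.12). Its other probes gave -1.08 and -0.97.

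Promoters of the mitosis genes often carried a pair of elements that are known from cell cycle genes, the cell cycle homology region (CHR, searched as TTTGAA) and the CCAAT box (CCAAT). Both strands were searched in RefSeq windows of the mouse build GRCm38.p6, 250 bases before to 50 after each start. Windows covered 28 of the 33 mitosis genes and 25 of the 29 replication genes that rose. A CHR was found in 24 of 30 windows of the mitosis genes that rose (80%), against 12.1% of the windows of genes tested and 17.9% of all windows. Over all tested mitosis genes, whether or not they rose, the share was 80.6%, about the same as for those that rose. A CHR together with a CCAAT box was found in 70% of the windows of those that rose and 72.2% of those of all tested mitosis genes, against 4.98% for genes tested and 6.95% of all windows, and in 11.6% of the windows of all genes that were higher in D8 and 2.79% of those that were lower. E2F sites, searched as TTTCCCGC, TTTGGCGC or TTTCGCGC, were found in 33.3% of the windows of the replication genes that rose and 32.5% of those of all tested replication genes, against 3.69% for genes tested and 1.84% of all windows. A match is a run of letters and was not tested as a binding site. The letters searched can overlap one another, and a stretch that matched more than 1 motif was counted for each. Printed are the windows of the 2 mitosis genes and the 2 replication genes with the largest increases among those whose window held the motif. Mcm3 and Mcm6, subunits of the replicative helicase, are named for this reason alone. Capitals mark matches on either strand of the motif each list was searched for, CHR and CCAAT boxes in the mitosis windows and E2F sites in the replication windows.
Espl1, chr15:102296043-102296342, plus strand: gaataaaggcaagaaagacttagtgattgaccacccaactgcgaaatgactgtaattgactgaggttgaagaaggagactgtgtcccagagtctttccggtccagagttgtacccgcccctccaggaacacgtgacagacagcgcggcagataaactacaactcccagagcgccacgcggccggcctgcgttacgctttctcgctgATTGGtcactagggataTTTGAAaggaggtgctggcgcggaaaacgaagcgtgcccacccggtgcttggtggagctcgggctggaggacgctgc
Top2a, chr11:99024140-99024439, minus strand: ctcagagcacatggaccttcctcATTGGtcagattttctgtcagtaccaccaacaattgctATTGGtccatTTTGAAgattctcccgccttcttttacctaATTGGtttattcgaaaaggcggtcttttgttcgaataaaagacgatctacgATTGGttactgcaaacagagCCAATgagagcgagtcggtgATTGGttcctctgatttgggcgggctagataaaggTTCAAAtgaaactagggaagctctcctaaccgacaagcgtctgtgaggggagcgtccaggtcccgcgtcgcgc
Mcm3, chr1:20820263-20820562, minus strand: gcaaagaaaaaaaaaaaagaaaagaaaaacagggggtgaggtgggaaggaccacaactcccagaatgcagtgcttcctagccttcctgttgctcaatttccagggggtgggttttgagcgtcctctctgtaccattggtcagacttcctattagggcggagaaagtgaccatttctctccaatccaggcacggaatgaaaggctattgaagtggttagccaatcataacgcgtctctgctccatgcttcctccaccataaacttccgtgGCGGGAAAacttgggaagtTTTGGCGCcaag
Mcm6, chr1:128359656-128359955, minus strand: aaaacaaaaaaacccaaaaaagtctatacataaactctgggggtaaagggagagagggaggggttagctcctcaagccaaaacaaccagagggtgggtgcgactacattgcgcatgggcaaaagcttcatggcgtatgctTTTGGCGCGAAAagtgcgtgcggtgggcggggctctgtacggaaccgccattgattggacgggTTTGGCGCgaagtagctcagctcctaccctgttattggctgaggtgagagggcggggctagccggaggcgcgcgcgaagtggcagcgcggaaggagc

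In these windows the Espl1 CHR begins 27 bases before the start and its CCAAT box 44 bases before it on the opposite strand. The Top2a window holds CHR matches on both strands and CCAAT boxes on both strands. In the Mcm6 window the pair of E2F matches farthest from the start overlaps on opposite strands, which is why they print as 1 run of capitals. Mcm3 rose by 0.76 ± 0.11 (adjusted p 0.00069) and Mcm6 by 0.71 ± 0.15 (adjusted p 0.00753).

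**Figure D2:**
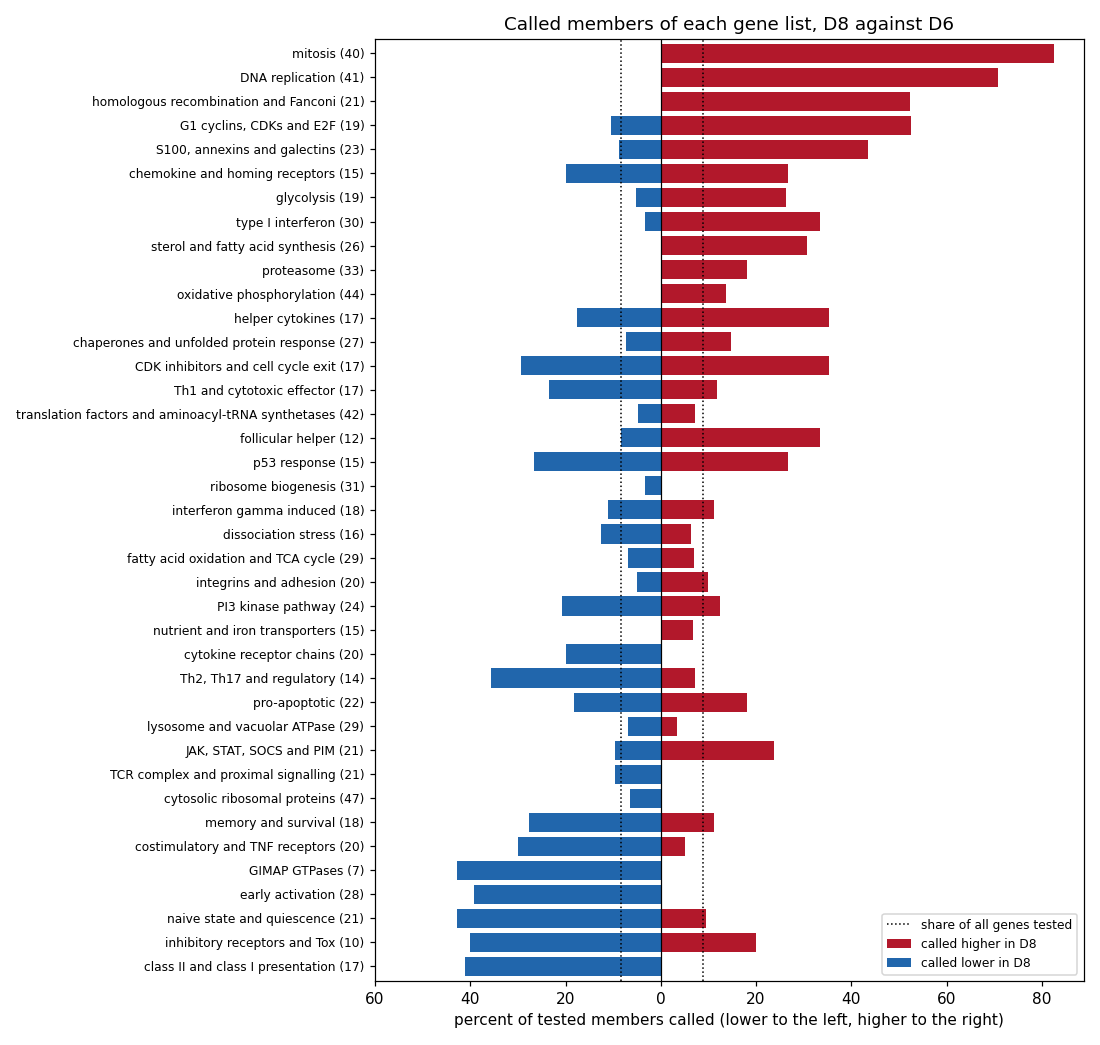
Percent of the tested members of each gene list (x axis) that were called higher in D8 than in D6 (red, to the right) or lower in D8 (blue, to the left), 1 list per row with the number of tested members in parentheses, ordered by median difference. Dotted lines mark the shares of all genes tested, 8.9% higher and 8.29% lower. Mitosis, with 33 of 40, and DNA replication, with 29 of 41, have the longest bars to the right and no bar to the left, and class II and class I presentation stands at the bottom with 0 of 17 higher and 7 of 17 lower.

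Of 17 tested cytokine genes 6 rose, among them genes of several helper lineages, and 3 fell, at a median of 0.14, and without the experiment in the model 5 rose and none fell. Il4, the cytokine of type 2 helper cells, had levels of 7.53, 7.53 and 6.67 in D8, against 5.42, 5.68 and 5.09 in D6 (adjusted p 3.36e-05). Il21, a cytokine of follicular helper cells that acts on B cells, had 7.77, 6.87 and 7.78 in D8, against 6.25, 4.85 and 6.48 in D6 (1.62 ± 0.28). All 3 pairs rose for both genes, and the D8 and D6 values did not overlap.

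Il17f, of the type 17 lineage, had 7.71, 5.64 and 6.98 in D8, against 5.16, 4.25 and 5.62 in D6, where it was detected on 2 of 3 arrays (1.77 ± 0.32). The experiments differed widely in its level, and the array of experiment 2 was the lowest in both divisions. Il10, an anti-inflammatory cytokine, had 6.11, 5.13 and 6.20 in D8, against 4.46, 4.25 and 4.84 in D6, where 1 of 3 arrays detected it (1.30 ± 0.18). Ifng, which codes for interferon gamma of type 1 helper cells, had 6.35, 6.60 and 5.55 in D8 and was not detected on any D6 array, at 4.63, 4.69 and 4.61. It was at least 2.76-fold higher in D8, a probe that passed the detection filter through its D8 arrays alone. Its other probe gave a smaller difference of 0.56.

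Il2, the autocrine growth factor that activated CD4 T cells release early, was lower in D8. Its levels were 7.16, 6.95 and 7.26 in D8, against 8.03, 7.36 and 8.11 in D6 (-0.71 ± 0.15, adjusted p 0.00808). The lymphotoxin genes Ltb (-0.47) and Lta (-0.56) were the other members that fell. Among the cytokine genes that did not pass, Tnf differed by 0.10, Il13 by 0.19 and Lif by 0.37.

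Lineage factors did not move as 1 group. Tbx21, which codes for the type 1 factor T-bet, had 5.2, 6.11 and 5.19 in D8, against 5.11, 5.07 and 4.84 in D6, a difference of 0.49 ± 0.17 that did not pass (adjusted p 0.0651). It passed when the D8 array of experiment 1 or that of experiment 3 was left out. Gata3, the type 2 factor, differed by -0.22 and did not pass (adjusted p 0.285). Of the type 1 and cytotoxic genes 2 of 17 rose and 4 fell (2 and 2 without the experiment in the model), and of the type 2, type 17 and regulatory genes 1 of 14 rose and 5 fell (1 and 2). Over all genes 8.9% were higher and 8.29% lower. Ikzf2, a factor known from regulatory T cells, was lower (-0.57 ± 0.11), as was Nrp1, a semaphorin and VEGF co-receptor (-0.57 ± 0.11).

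Among follicular helper genes 4 of 12 rose and 1 fell (2 and 1 without the experiment in the model). Cxcr5, the receptor that draws T cells to B cell follicles, had levels of 10.79, 10.83 and 10.43 in D8, against 9.36, 9.41 and 9.82 in D6 (1.15 ± 0.15, adjusted p 0.000378), and its other probes gave 1.09 and 0.96. Bcl6, the transcription factor of this lineage, rose by 0.56 ± 0.15 (adjusted p 0.0295), with 10.55, 10.52 and 10.01 in D8, against 10.16, 9.52 and 9.73 in D6, so the groups overlapped although each pair rose. The Bcl6 call was lost in 6 of 24 settings. Cd200, a membrane glycoprotein of helper cells, fell by 0.86 (SE 0.18).

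Chemokine and homing receptors moved in both directions, with 4 of 15 tested members higher and 3 lower (6 and 3 without the D8 array of experiment 3). Cxcr4 had levels of 8.21, 8.11 and 7.84 in D8, against 6.16, 5.56 and 6.43 in D6 (adjusted p 0.000159). Cxcr3, the receptor of interferon-induced chemokines at inflamed sites, had 9.57, 9.97 and 8.78 in D8, against 7.86, 8.77 and 7.98 in D6 (1.24 ± 0.24). Its highest D6 array, at 8.77, came close to its lowest D8 array, at 8.78, in another experiment. Ccr7, through which naive T cells enter and stay in lymph nodes, had 6.36, 7.18 and 7.28 in D8, against 8.06, 8.29 and 8.14 in D6 (-1.23 ± 0.16, adjusted p 0.000382).

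Ccr8 (-0.87 ± 0.19) and Gpr15, a gut homing receptor (-0.86 ± 0.18), were the other homing receptors that fell. Klf2, a transcription factor that drives S1pr1 and lymph node exit, rose by 0.55 ± 0.11, with 10.65, 10.56 and 10.51 in D8, against 9.88, 10 and 10.2 in D6. S1pr1 itself was not detected on any of the 6 arrays. Of integrin and adhesion genes 2 of 20 rose and 1 fell, near the shares of all genes, and without the experiment in the model none rose and 1 fell. Cd44, an adhesion receptor of activated T cells, was the member that fell (-0.55 ± 0.11), and its 4 other probes were all lower in D8 too (-0.13 to -0.69).

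**Figure D3:**
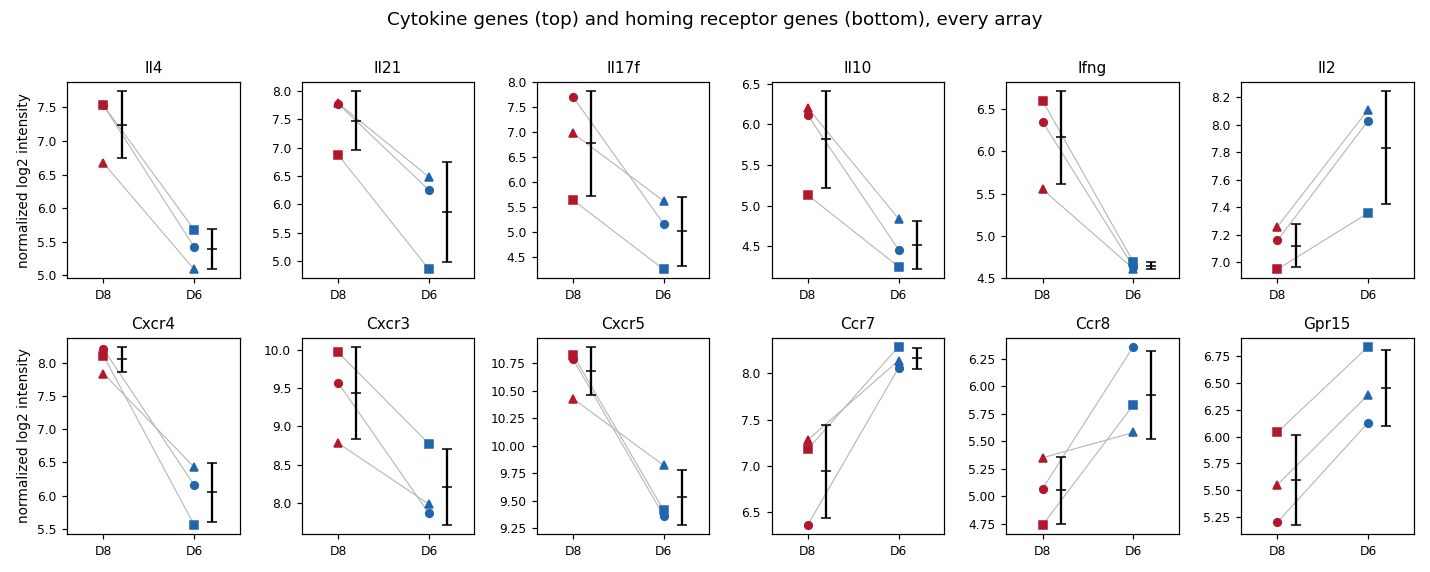
Normalized log2 intensity (y axis, its own range in each panel) of 6 cytokine genes (top) and 6 homing receptor genes (bottom) on the D8 arrays (red, left) and the D6 arrays (blue, right). Circles, squares and triangles are experiments 1, 2 and 3, grey lines join the arrays of 1 experiment, and black bars give the mean and SD (n = 3). Every line falls from left to right for Il4, Il21, Il17f, Il10, Ifng, Cxcr4, Cxcr3 and Cxcr5, which are higher in D8, and every line climbs for Il2, Ccr7, Ccr8 and Gpr15, which are lower in D8.

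Inhibitory receptors also moved in both directions, 2 of 10 tested members being higher and 4 lower. Tigit had levels of 7.85, 6.98 and 6.61 in D8, against 5.12, 5.12 and 5.33 in D6 (adjusted p 0.000259). Havcr2, which codes for the receptor TIM-3, had 5.85, 5.74 and 5.34 in D8 and was not detected in D6, so that it was at least 1.92-fold higher in D8. It passed the detection filter through its D8 arrays alone. Lag3, a receptor for class II molecules, had 8.46, 8.65 and 8.92 in D8, against 9.96, 9.69 and 9.51 in D6 (-1.04 ± 0.14).

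Nt5e, an ectoenzyme that makes adenosine, fell by 0.73 (SE 0.15), and Cd200, described above, and Tox, a factor of persistently stimulated T cells (-0.56), were the other members that fell. Ctla4 differed by -0.41 and Btla by -0.25, and neither passed.

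Costimulatory and TNF receptor genes were lower in 6 of 20 tested members and higher in 1, with a median of -0.24. The lower ones, besides Cd86, included Cd226, an activating receptor that shares its ligands with TIGIT, with 7.01, 7.50 and 7.39 in D8, against 8.34, 8.84 and 8.35 in D6 (-1.21 ± 0.15), Tnfrsf4, known as OX40 (-0.56 ± 0.12), and Tnfrsf18, known as GITR (-0.49 ± 0.11). Fas, the death receptor, was the member that rose (0.35 ± 0.11, adjusted p 0.0416), a call that was lost in 17 settings. Without the experiment in the model 4 members were lower and none higher. Cd28 differed by -0.18 and Icos by 0.18, and neither passed.

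Genes of early activation, which are switched on by T cell receptor signals, were lower in 11 of 28 tested members and higher in none, at a median of -0.28. Without the experiment in the model 7 were lower. Cd83, a membrane protein induced on stimulation, had 8.11, 8.30 and 8.53 in D8, against 9.80, 9.71 and 9.51 in D6 (-1.36 ± 0.13). Bhlhe40, a transcription factor of stimulated lymphocytes, differed by -1.02 ± 0.11, Dusp6, a phosphatase of ERK, by -0.89 ± 0.10, and Dusp2, a nuclear MAP kinase phosphatase, by -0.61 ± 0.09. Cd69, an early marker that holds cells in the node, had 10.76, 10.59 and 11.14 in D8, against 11.50, 11.39 and 11.65 in D6 (-0.69 ± 0.10, adjusted p 0.000558).

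Of the immediate-early genes, Fos (-0.34), Jun (0.08) and Junb (-0.08) did not pass, nor did Myc (-0.06). Dusp1 (-0.47 ± 0.09, adjusted p 0.00543), Egr1 (-0.32 ± 0.10, adjusted p 0.049) and Egr4 (-1.15 ± 0.12), which is not a member of the early activation list, were lower. The Egr1 call was lost in 20 of 24 settings and the Dusp1 call in 2. Il2ra, the high-affinity chain of the IL-2 receptor, differed by 0.40 and did not pass. Genes of the receptor complex and its proximal kinases gave 0 of 21 higher and 2 lower, and neither was called without the experiment in the model.

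Antigen presentation genes were lower in 7 of 17 tested members and higher in none (5 lower without the experiment in the model), with a median of -0.33. H2-Oa, a chain of the DO molecule that restrains class II loading, had levels of 7.67, 8.08 and 8.11 in D8, against 9.16, 9.60 and 9.17 in D6 (-1.36 ± 0.15), and H2-Ob, its partner, differed by -1.04 ± 0.22 and was detected on 1 of 3 D8 arrays. The DM chains that load class II molecules, H2-DMb1 (-0.84 ± 0.14), H2-DMb2 (-0.78 ± 0.13) and H2-DMa (-0.71), were lower too. H2-K1, a classical class I molecule, differed by -0.82 ± 0.12, and H2-T23, of class Ib, by -0.35. The class II chains themselves did not pass, at 0.52 for H2-Ab1, 0.20 for H2-Eb1 and 0.29 for the invariant chain gene Cd74.

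Markers of other cells were looked up beside these genes. Of 18 listed B cell markers 7 were tested, of which 2 were lower in D8 (Cd72 at -0.96 ± 0.20 and H2-DMb2), and their summed normalized intensities ran from 363.7 to 423.2 in D8 and from 459.7 to 492 in D6. Ms4a1, Pax5, Blk, Blnk, Cr2 and Bank1 were not detected by the rule of 3 arrays, and the other 5 tested, Cd22 (0.19), Ebf1 (0.19), Fcer2a (0.15), Cd79b (0.15) and Fcmr (0.12), had positive differences that did not pass. The median of the B cell list was 0.14, and H2-DMb2 is also one of the presentation genes. Of 11 dendritic cell markers 3 were tested, and their sums ran from 127 to 190.7 in D8 and from 352.8 to 398 in D6. Cd86 was the member that moved, while Zbtb46 (-0.16) and Siglech (0.09) did not pass and Itgax, Flt3, Xcr1 and Clec9a were not detected by that rule. The part of other cells in the class II and Cd86 results was not tested.

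Other marker lists moved less. The myeloid genes Lyz1 and Lyz2 differed by 0.40 and 0.41 without passing, and Cd14, Csf1r and Itgam were not detected, with sums of 340.4 to 531 in D8 and 239 to 558.2 in D6. Klrd1 and Nkg7 of NK cells differed by 0.25 and 0.04. Cd8b1, of CD8 T cells, differed by -0.14, and Cd8a was not detected by that rule. The Cd8b1 level was high in both divisions, with means of 11.30 in D8 and 11.44 in D6. Cd4 had means of 8.22 and 8.25. The source of the Cd8b1 signal was not tested. Xbp1, a transcription factor of secretory cells that T cells also express, was the plasma cell list's member that rose (0.41 ± 0.10), a call lost in 5 of 24 settings. Jchain, Sdc1 and Prdm1 were not detected by that rule. Among dissociation stress genes 1 of 16 rose and 2 fell, at a median of 0.03.

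Genes of the naive and quiescent state fell in 9 of 21 tested members and rose in 2, at a median of -0.30 (6 and 2 without the experiment in the model). Besides Ccr7 and Igfbp4, Pik3ip1, which restrains PI3 kinase, fell to 7.13, 7.47 and 8.28 in D8, against 8.85, 8.61 and 8.89 in D6 (-1.16 ± 0.16). Dapl1 differed by -0.85 ± 0.12, the quiescence factor Foxp1 by -0.66 and Tsc22d3, a glucocorticoid-induced leucine zipper protein, by -0.82. Klf2, given above, and Ly6c1, a surface protein that marks subsets of T cells (1.03 ± 0.24), were the 2 that rose. Il7r, the receptor chain for the survival cytokine IL-7, had 7.31, 7.81 and 7.56 in D8, against 7.30, 7.59 and 7.60 in D6, a difference of 0.07 ± 0.23 (adjusted p 0.878).

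Several anti-apoptotic genes were lower in D8. Bcl2, the anti-apoptotic protein of resting and memory T cells, had levels of 7.10, 7.14 and 7.16 in D8, against 7.81, 8.12 and 8.02 in D6 (-0.85 ± 0.10, adjusted p 0.000197), and its 4 other probes lay between -0.26 and -0.90. Bcl2l1, which codes for BCL-XL, differed by -0.54 ± 0.12 and Mcl1 by -0.38. In the list of memory and survival genes 5 of 18 fell and 2 rose, and without the experiment in the model 2 fell and none rose. Birc2 (-0.28) and Cflar (-0.06) did not pass.

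Genes that promote death moved both ways, with 4 of 22 tested members higher and 4 lower (2 and 4 without the experiment in the model). Fasl, the death ligand of effector cells, fell by 1.03 (SE 0.14), Bbc3, a BH3-only protein known as PUMA, by 0.88 (SE 0.12), and Pdcd4 by 0.60 (SE 0.09). Of the other Pdcd4 probes 1 had the opposite sign. Bik, a BH3-only protein, rose by 0.96 ± 0.15 and was detected on 2 of 3 D6 arrays, and Bak1, a pore-forming member of the BCL-2 family, rose by 0.78 ± 0.18. Genes of the p53 response were divided too, with 4 of 15 higher and 4 lower (1 and 2 without the experiment in the model). Sesn1, a stress-induced regulator of mTORC1, had 9.61, 9.27 and 11.03 in D8, against 11.05, 11.11 and 11.58 in D6 (-1.28 ± 0.22), and its D8 array of experiment 3 nearly reached the lowest D6 array. Gadd45a, a growth arrest gene, rose by 0.75 ± 0.13.

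Signalling genes downstream of cytokines showed 5 of 21 higher and 2 lower by their brightest probes (2 and 1 without the experiment in the model), at a median of -0.08. Socs2 had levels of 7.20, 6.27 and 6.89 in D8, against 4.41, 4.50 and 5.16 in D6, and Cish, a related inhibitor of STAT5 signalling, rose by 0.45 ± 0.09, whereas Socs5 differed by -0.91 ± 0.13. For Jak1 the probes disagreed: the brightest rose by 0.71 ± 0.12 and the others gave -0.44 and -0.54, so no direction can be given for this member of the 5. Of the cytokine receptor chains 4 of 20 fell and none rose. These were the 3 TGF-beta receptor genes, Tgfbr3 (-0.85 ± 0.14), Tgfbr1 (-0.69 ± 0.13) and Tgfbr2 (-0.37 ± 0.09), and Ifngr2, a chain of the interferon gamma receptor (-0.62 ± 0.11). The Tgfbr2 call was lost in 7 of 24 settings.

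In the PI3 kinase pathway 3 of 24 genes rose and 5 fell (1 and 3 without the experiment in the model), against 8.9% and 8.29% of all genes. Sgk1, a kinase downstream of mTORC2, had 11.59, 11.26 and 11.51 in D8, against 10.60, 10.17 and 10.94 in D6 (0.89 ± 0.11), while Pik3r3 and Pik3ip1 were among those that fell. Inpp4b, a phosphatase of phosphoinositides, differed by -0.45 ± 0.12, a call that was lost in 7 of 24 settings.

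S100, annexin, galectin and related cytoskeletal genes, a group known to be high in effector and memory T cells, rose in 10 of 23 tested members and fell in 2, at a median of 0.35 (8 and 1 without the experiment in the model). Besides Lgals3, S100a6 and Anxa2, Emp1, a membrane protein, rose by 1.40 ± 0.13. S100a11 had 12.90, 12.61 and 12.29 in D8, against 11.49, 11.50 and 11.40 in D6 (1.14 ± 0.14). Anxa6, an annexin of the plasma membrane, was lower (-0.55 ± 0.11), as was the nuclear lamina gene Lmna (-0.42), and Anxa5 (0.03) and S100a10 (0.35) did not pass. Annexin genes thus stood on both sides of 0.

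Interferon-induced genes rose in 10 of 30 tested members and fell in 1, at a median of 0.19, and without the experiment in the model 4 rose and none fell. The members that moved most were the IFITM genes, which sit side by side on chromosome 7. Ifitm3 had levels of 9.80, 9.73 and 9.49 in D8, against 7.34, 7.50 and 8.03 in D6 (adjusted p 0.000145). Ifitm1 had 8.77, 8.63 and 8.65 in D8, against 6.67, 6.75 and 7.44 in D6 (1.73 ± 0.14), and Ifitm2 rose by 0.90 ± 0.15. Oas3, an antiviral sensor, rose by 0.87 ± 0.11 and Ly6e by 0.76 ± 0.14. Irf9, part of the interferon-activated transcription complex, fell by 0.33 (SE 0.09), a call that was lost in 12 of 24 settings.

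Classical members of the same programme did not pass, at 0.03 for Isg15, 0.05 for Mx1, -0.13 for Ifit2, -0.16 for Ifit3 and 0.35 for Irf7. Of 18 genes linked to interferon gamma 2 rose and 2 fell, near the shares of all genes. The element through which interferon acts on promoters, the interferon-stimulated response element (ISRE, searched on both strands as the GAAA tetramer repeated after any 2 bases), was found in 5 of 6 windows of the type I interferon genes that rose (83.3%) and in 11 of 26 windows of all those tested (42.3%), against 3.13% for genes tested and 3.44% of all windows. Only 6 of the 10 genes that rose had a window. The windows of Ifitm3 and Ifitm2 from RefSeq (GRCm38.p6) are printed as those with the largest increases among them, with the matches in capitals: Ifitm3 holds 2 just after the start and Ifitm2 holds 1 before it.
Ifitm3, chr7:141010695-141010994, minus strand: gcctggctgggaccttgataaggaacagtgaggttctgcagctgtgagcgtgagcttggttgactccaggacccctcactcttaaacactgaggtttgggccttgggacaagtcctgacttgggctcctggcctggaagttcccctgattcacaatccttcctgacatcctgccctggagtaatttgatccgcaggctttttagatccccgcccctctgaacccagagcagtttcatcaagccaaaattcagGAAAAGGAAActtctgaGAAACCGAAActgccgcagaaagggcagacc
Ifitm2, chr7:140955912-140956211, minus strand: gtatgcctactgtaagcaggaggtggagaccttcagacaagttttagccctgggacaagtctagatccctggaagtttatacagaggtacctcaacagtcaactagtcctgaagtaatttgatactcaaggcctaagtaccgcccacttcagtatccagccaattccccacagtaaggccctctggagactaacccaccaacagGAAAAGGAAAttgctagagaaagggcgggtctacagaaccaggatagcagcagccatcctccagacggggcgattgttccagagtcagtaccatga

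Metabolic groups moved less than the cell cycle. Of sterol and fatty acid synthesis genes 8 of 26 rose and none fell, at a median of 0.18 (5 rose without the experiment in the model). A sterol element, searched on both strands as TCACNCCAC with N for any base, was found in 0 of 6 promoter windows, which covered 5 of the 8 genes that rose. It was found in 0 of 27 windows of all those tested, against 1.05% for genes tested. At that share a count of 0 is likely in so few windows, so it cannot tell these genes from others. Fdps, which makes farnesyl diphosphate, had 10.95, 11.21 and 10.44 in D8, against 10.27, 10.27 and 9.96 in D6 (0.70 ± 0.12), Srebf2, the transcription factor of sterol synthesis, rose by 0.57 ± 0.11 and Pmvk, a mevalonate pathway kinase, by 0.53 ± 0.11. Among glycolysis genes 5 of 19 rose and 1 fell, with Tpi1 at 0.68 ± 0.11, Pgk1 at 0.56 ± 0.10, Gapdh at 0.46 ± 0.09 and, lower in D8, Pfkm at -0.53 ± 0.09. The called share was above that of all genes in both lists.

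Oxidative phosphorylation gave 6 of 44 higher and none lower, with 41 of 44 differences positive at a median of 0.16, but 2 passed without the experiment in the model, 3 without the D8 array of experiment 3 and 14 with median centring. Cox6a1, a subunit of cytochrome oxidase, rose by 0.50 ± 0.09. Proteasome genes gave 6 of 33 higher and none lower, of which Psmc3 differed most (0.52 ± 0.11), and 3 passed without the experiment in the model. Fatty acid oxidation and the citric acid cycle gave 2 of 29 in each direction, near the shares of all genes.

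Genes of protein synthesis were close to or below the share of all genes. Cytosolic ribosomal protein genes gave 0 of 47 higher and 3 lower, with 5 of 47 differences positive at a median of -0.14. Rps15 had 12.45, 12.46 and 12.62 in D8, against 12.92, 12.95 and 13 in D6 (-0.44 ± 0.10). Ribosome biogenesis gave 0 of 31 higher and 1 lower, and translation factors and aminoacyl-tRNA synthetases 3 of 42 higher and 2 lower. Eef2, the elongation factor that moves the ribosome, was lower (-0.62 ± 0.12) and Eif2s2, a subunit of the initiation factor eIF2, higher (0.55 ± 0.10). Chaperone and unfolded protein response genes gave 4 of 27 higher, led by the disulfide isomerase gene Pdia6 (0.87 ± 0.11), and 2 lower.

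GIMAP GTPases, which support survival of resting lymphocytes, fell in 3 of 7 tested members, with Gimap8 at -0.54 ± 0.10 and Gimap1 at -0.53 ± 0.11, and rose in none. Lysosomal and vacuolar ATPase genes gave 1 of 29 higher and 2 lower, and nutrient and iron transporters 1 of 15 higher and none lower, the one being the transferrin receptor gene Tfrc (0.41 ± 0.09).

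Some genes were detected in only 1 of the divisions. Of all genes tested, 21 were detected on all 3 D8 arrays and no D6 array, and 41 on all 3 D6 arrays and no D8 array. Such genes passed the detection filter only through the division where they were high. Their direction therefore follows from the filter, and their calls add no support to it. Of the first kind, besides 1500009L16Rik, Ifng and Havcr2, Tgfb3, a TGF-beta ligand, had 6.10, 5.34 and 5.6 in D8 and was at least 1.97-fold higher, and Rbm47, an RNA-binding protein, was at least 1.67-fold higher. Of the second kind, Sh3bgrl2 was at least 1.71-fold lower in D8, Scin, an actin-severing protein, at least 1.66-fold lower, Rxra, the retinoid X receptor alpha, at least 1.64-fold lower and Tbc1d4, a Rab GTPase-activating protein, at least 1.48-fold lower. Each of these dim genes had levels near background in the division that did not detect it, such as 4.59, 4.43 and 4.50 for Rxra in D8, against 5.50, 5.38 and 5.49 in D6.

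The size of the change was not equal in the 3 experiments. Over the 787 genes called higher the median difference was 0.58, 0.58 and 0.45 in experiments 1, 2 and 3, and over the 733 called lower it was -0.60, -0.58 and -0.41. The smaller values in experiment 3 go with the place of its D8 array on the first principal component. Mitosis genes had medians of 0.89, 0.86 and 0.59, replication genes of 0.47, 0.65 and 0.37, and naive state genes of -0.39, -0.40 and -0.16. Limma's array weights for the D8 arrays were 1.17, 0.80 and 0.67, and 1540 genes passed when they were used.

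Leaving out the D8 array of experiment 3 gave 716 higher and 755 lower genes over all. DNA replication then had 26 members higher, homologous recombination 12, type I interferon 11 with none lower, and S100 and related genes 10 with 2 lower. G1 genes had 10 higher and 1 lower, brakes of the cycle 4 and 4, helper cytokines 6 and 3, follicular helper genes 4 and 1, type 1 genes 4 and 4, and type 2, type 17 and regulatory genes 3 and 4. Early activation had 1 higher and 12 lower, presentation 1 and 8, costimulation 0 and 6, inhibitory receptors 3 and 4, naive state genes 2 and 8, memory and survival genes 2 and 3, and cytokine receptor chains 1 and 6. The p53 response had 3 in each direction, pro-apoptotic genes 3 and 5, and the PI3 kinase pathway 2 and 5. Without the experiment in the model 1 cytosolic ribosomal protein gene fell, 1 translation gene moved each way, and no lysosomal, transporter, dissociation stress or ribosome biogenesis gene passed.

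**Figure D4:**
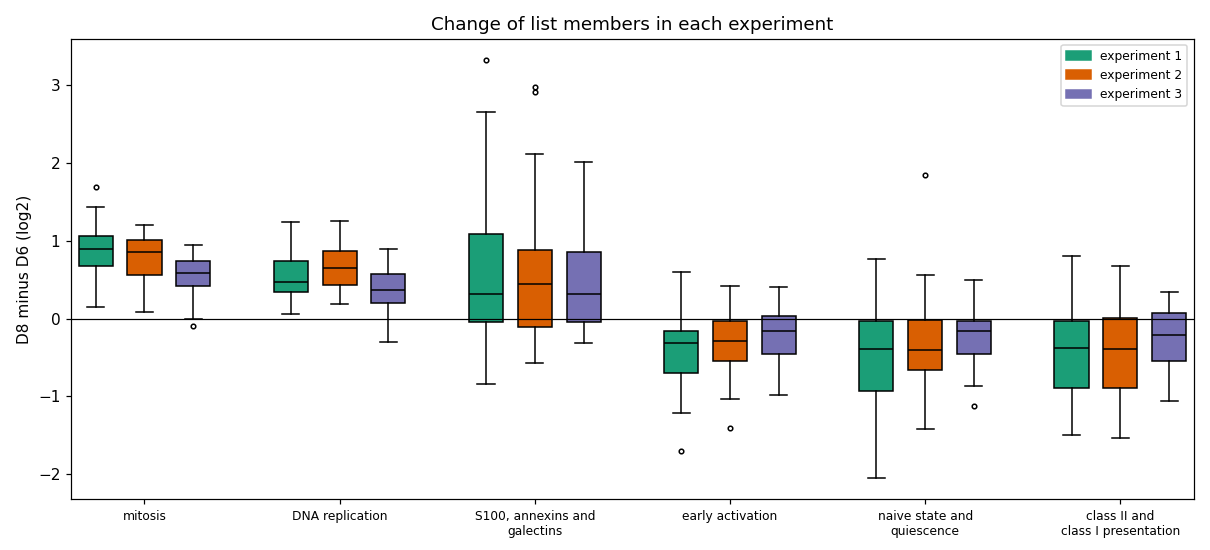
Difference of D8 minus D6 on the log2 scale (y axis) of the tested members of 6 gene lists, 1 box per experiment, with green, orange and purple for experiments 1, 2 and 3. Boxes show the quartiles and the median, whiskers reach the farthest value within 1.5 times the interquartile range, and circles are members beyond it. Every median lies on the same side of 0 in all 3 experiments, and for mitosis the medians are 0.89, 0.86 and 0.59.

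The step that ends at D8 was also set against the step before it, since both span 2 divisions by the labels. Between D6 and D4, 780 genes passed (8.82%), 453 higher in D6 (5.12%) and 327 lower (3.7%), and both steps share the D6 arrays. The median absolute difference was 0.161 for D8 minus D6 and 0.135 for D6 minus D4. Mitosis genes had a median of 0.75 in the last step and 0.82 in the one before it, replication genes 0.53 and 0.27, and early activation genes -0.28 and -0.15. None of the genes in these 3 lists passed the test of the difference between steps. Egr4, which is outside the early activation list, did pass it (-1.38 ± 0.21, adjusted p 0.0282).

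Over all genes 18 passed that test (0.203%), 10 with a more positive and 8 with a more negative last step, and 1040 genes had an unadjusted p under 0.05. The count is fragile: it was 3 without the experiment in the model, 0 without the D6 array of experiment 1 or of experiment 2, 5 without the D4 array of experiment 1 and 49 without the D8 array of experiment 3. The sign of the difference was kept by all 18 in each of these settings. Lag3 had means over the divisions D3, D4, D6 and D8 that peaked at D6, with a last step of -1.04 and a step before it of 0.57, and the difference between them was -1.61 ± 0.24 (adjusted p 0.0208). Gna14 (-2.01 ± 0.26), Gpr15 (-1.82 ± 0.31), Fhdc1 (-1.57 ± 0.23) and Synpo, an actin-associated protein (-1.33 ± 0.21), had the same shape, each with a positive step to D6 and a negative step to D8.

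The reverse shape, a dip at D6, was seen for Ifitm2, with a last step of 0.90 and -0.72 before it, Hap1, which codes for a huntingtin-associated protein (0.44 and -1.02), the transcriptional regulator gene Lmo4 (0.62 and -0.83) and Marcks, a protein kinase C substrate (0.69 and -0.73). Sema7a, 1500009L16Rik and Havcr2 also passed with a more positive last step, but none of them was detected on any D4 array, and 1500009L16Rik and Havcr2 were not detected in D6 either, so no size is given for their step before it. Egr4, an early growth response factor, had a last step of -1.15 ± 0.12 and a step before it of 0.23, so its mean was highest at D6, as for Lag3. Zbtb32, a repressor induced in activated lymphocytes, rose in both steps but less in the last (1.11 and 2.35), and was named after its values were seen.

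**Figure D5:**
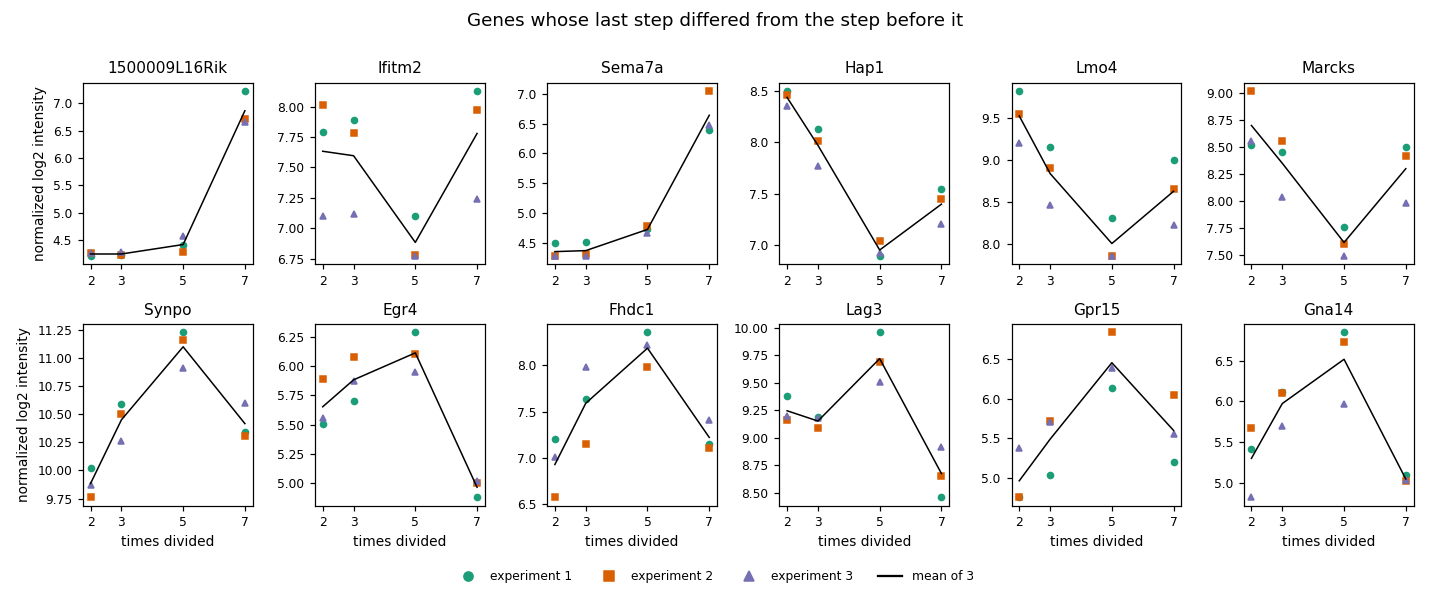
Normalized log2 intensity (y axis, its own range in each panel) against the number of times divided (x axis, 2, 3, 5 and 7 for D3, D4, D6 and D8) for the 12 genes whose last step differed most from the step before it among those also called in D8 against D6. Circles, squares and triangles are experiments 1, 2 and 3 and the line joins the means of 3 arrays. The points of 1500009L16Rik at 2, 3 and 5 divisions and of Sema7a at 2 and 3 divisions are not above background. The top row holds the genes with a more positive last step and the bottom row those with a more negative one, and Lag3, Gpr15, Gna14, Fhdc1, Synpo and Egr4 have their highest mean at 5 divisions.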

How the data were processed

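RNA of sorted mouse CD4 T cells was measured on Illumina bead arrays. BeadStudio 2.0 is named in the submitters' processing notes, and the authors deposited its intensity value for each probe without normalization. A detection p-value beside each intensity was deposited by the authors, per the file headers, in steps of 1 in 936. A second table of deposited intensity values, per its header processed by the authors, holds background-subtracted values normalized in a way not given in the sources used here, and served as an alternative. No genome build is given in the sources used here.

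All 12 arrays were background-corrected and quantile-normalized with neqc (offset 16) in limma 3.58.1 under R 4.3.3. A model with 4 division means and the experiment as a block was fitted with lmFit and eBayes (6 residual and 6.51 prior degrees of freedom). The labels' experiment numbers pair the arrays. Deviations from the division means correlated at 0.159 to 0.348 between D8 and D6 of 1 experiment and at -0.35 to 0.0772 between experiments. P-values were adjusted by Benjamini-Hochberg over all 16226 detected probes, and calls used 0.05. A level bound for an undetected gene used the higher of its own signal and the lowest detected signal per array. Probes were named from the platform annotation: 34885 carried 1 symbol, 18 several and 10378 none. Among called genes with more than 1 probe (566), 54 had another probe of opposite sign.

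The text names the 12 largest changes each way, up to 5 called members of each list and 1 against its majority, the largest step differences, genes detected in 1 division alone, and a set of T cell genes. Other genes named were chosen after their values were seen. Members and gene lists were chosen with earlier results of these data known, so lists are described by counts and medians without a list test. Alternatives covered the block, normalization, offset, filter, probe choice, array weights, the arrays fitted and leaving out each array.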

Additional observations from a re-analysis of the deposited data

Results flagged for a closer look

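For 12 genes the difference of D8 minus D6 differed from that of D6 minus D4 by a test of the difference itself (limma, Benjamini-Hochberg adjustment), and both steps share the D6 arrays. The value is the last step minus the step before it on the log2 scale. It was positive for 1500009L16Rik (2.28 ± 0.23, adjusted p 0.00466), Ifitm2 (1.62 ± 0.25, 0.0282), Sema7a (1.56 ± 0.25, 0.0299), Hap1 (1.46 ± 0.17, 0.00789), Lmo4 (1.45 ± 0.18, 0.00986) and Marcks (1.42 ± 0.22, 0.0282). It was negative for Gna14 (-2.01 ± 0.26, adjusted p 0.0137), Gpr15 (-1.82 ± 0.31, 0.038), Lag3 (-1.61 ± 0.24, 0.0208), Fhdc1 (-1.57 ± 0.23, 0.0208), Egr4 (-1.38 ± 0.21, 0.0282) and Synpo (-1.33 ± 0.21, 0.0299). None of the 12 passed without the D6 array of experiment 1 or without that of experiment 2, and each kept its sign. 1500009L16Rik was not detected in D6 or D4 and Sema7a not in D4, so their values rest on background readings and are not step sizes.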

How the results depend on the processing

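The count of 1520 genes between D8 and D6 was 795 without the replicate block, all of them among the 1520, and ran from 829 to 1479 when 1 array was left out. Under the other alternatives it lay between 1069 (without experiment 3, an alternative chosen after the data were seen) and 1889 (offset of 50). With median centring 914 genes were higher and 610 lower, against 787 and 733. The count of 18 genes whose last step differed from the one before was 3 without the replicate block, 11 with median centring, 10 with the authors' processed values, 69 with an offset of 50, 5 with no filter on dim probes, and 0 to 49 when 1 array was left out. Of 195 genes named by the rule, 112 kept their direction and their side of the threshold under every one of the 23 or 24 settings tried for it. Direction changed for Jak1 with the mean of all probes (-0.09), for Il7r with the mean of all probes (-0.03), and on leaving out 1 array (-0.19 to 0.31, negative without the D6 array of experiment 3 or the D8 array of experiment 2), and for Cd4 with median centring (0.02) and on leaving out 1 array (-0.10 to 0.06, positive without the D6 or the D8 array of experiment 2). The Jak1 probes differ in sign, which shows the cause there, and the other causes were not tested. Depth does not apply to arrays, and dim probes give only bounds.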

Other observations

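Gene families chosen after the values were seen gave further counts. Replication-dependent histone genes rose in 19 of 47 tested members and fell in 2, tubulin genes rose in 7 of 11, centromere protein genes in 10 of 16 and kinesin genes in 8 of 21, with none falling in these 3 families, against 8.9% of all genes higher and 8.29% lower. Mitochondrial ribosomal protein genes rose in 13 of 72, also to be read against 8.9%, with none falling, at a median difference of 0.17, whereas cytosolic ribosomal protein genes had a median of -0.14. Histone probes may share sequence between copies, so single histone genes are uncertain.

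Some genes known from muscle were among those that were higher in D8. Popdc2 differed by 1.69 ± 0.19, Ryr1, the calcium release channel of skeletal muscle, by 1.58 ± 0.18, Asb2, a ubiquitin ligase subunit, by 1.49 ± 0.10, Fhl2, a LIM domain protein, by 1.40 ± 0.10 and Rapsn, which clusters acetylcholine receptors, by 1.30 ± 0.16. The adjusted p of these 5 was at most 0.000349. They were picked for their values, muscle genes as a group were not counted and no set test was made. Actn2, another gene known from muscle, differed by -0.20 at its brightest probe and did not pass (adjusted p 0.3).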
